A study of Mus musculus with 6 samples.

Results

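The 6 genes described here, Mylk, Myh9, Myh10, Fmnl2, Dlc1 and Piezo2, act in actomyosin contractility and mechanosensing. They are 6 of 21887 protein-coding genes on the main mouse chromosomes, and 20 of 3521 listed regions were linked to them, 19 more accessible and 1 less accessible in mutant cells. The assay was ATAC-seq, which marks accessible DNA by letting a transposase insert adapters into it, on fibroblasts taken from mouse embryos at embryonic day 13.5 and grown in culture. The 3 FOP mutant libraries were Acvr1R206H/+, carrying the receptor allele of fibrodysplasia ossificans progressiva on 1 of the gene's copies, and the 3 wild-type libraries were Acvr1+/+. Acvr1 encodes a type I receptor for bone morphogenetic proteins, and in the disease bone forms in soft tissue. Cultures of this kind hold a mixture of embryonic cell types, and no further treatment is named in the labels. The authors' deposited lists hold 2965 more accessible and 556 less accessible regions as positions only, so that neither a signal per library nor the size of any change was used here. The depth is therefore unknown, and the spread between replicates could not be weighed. In such bulk libraries a larger share of cells with an open region and a more open region per cell cannot be told apart.

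A region was linked to a gene when its midpoint lay inside the gene's span on GRCm38, or, outside all protein-coding spans, when that gene was the nearest within 100 kb. The genes were chosen by their role and by the number of listed regions linked to them, so their counts are a description and carry no test. For comparison, 1591 of all 21887 protein-coding genes (7.27%) had at least 1 more accessible region, 452 (2.07%) had at least 2, 158 (0.722%) had at least 3 and 27 (0.123%) had at least 5. At least 1 less accessible region was linked to 436 genes (1.99%). Inside the span alone, 936 genes (4.28%) had a more accessible region and 239 (1.09%) a less accessible one.

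Contractile force in fibroblasts comes from nonmuscle myosin II, a motor that slides actin filaments past each other when its regulatory light chain is phosphorylated. Myosin light chain kinase, encoded by Mylk, is a calcium-calmodulin dependent enzyme that adds this phosphate, and the RHOA pathway, which DLC1 restrains, adds to it through ROCK kinases and through inhibition of myosin phosphatase. Formins such as FMNL2 elongate the actin filaments, and PIEZO channels admit cations when the membrane is stretched.

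The kinase gene Mylk held 5 more accessible regions and no less accessible one. All of them lay inside its 257 kb span (chr16:34745199-35002436). In order along the chromosome they were chr16:34825135-34826467 (1333 bp), chr16:34839462-34839974 (513 bp), chr16:34855530-34856142 (613 bp), chr16:34935567-34936504 (938 bp) and chr16:34941822-34942345 (524 bp). They formed an upstream group of 3, with neighbouring midpoints 13.9 and 16.1 kb apart, and a downstream pair 6.05 kb apart, with 80.2 kb between the groups. The gene is transcribed toward higher coordinates, and the RefSeq promoter table places its start site at 34784950, inside the annotated span. Measured from there, the regions lay 40.9, 54.8, 70.9, 151 and 157 kb downstream. From the low-coordinate end of the span they lay 80.6, 94.5, 111, 191 and 197 kb in. No distance was measured to any other start of the gene. The first was wider than 98.9% of all more accessible regions. The nearest less accessible region on the chromosome was 749 kb away from it.

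The downstream pair of Mylk regions flanked the start of a long noncoding RNA gene, 1700119H24Rik, which lies within the Mylk span on the opposite strand (chr16:34935855-34939329). The midpoints were 3.29 and 2.75 kb from its start site at 34939329, and the midpoint of the first lay inside it. The midpoint of the second was also 1.09 kb from the far end of another long noncoding RNA gene on the minus strand, E130310I04Rik (chr16:34943175-34958994), which is transcribed toward it. The other 3 Mylk regions had the Mylk start site as their nearest. No region linked to Mylk overlapped a listed promoter window, that is the 250 bases before and 50 after a start site. The windows of Mylk (chr16:34784700-34784999, plus strand) and 1700119H24Rik (chr16:34939280-34939579, minus strand) are shown because the 5 regions are placed against these start sites. The sequences are from RefSeq on GRCm38.p6, 5′ to 3′, with capitals marking the TEAD motif ACATTCC and the AP-1 motif TGANTCA.
Mylk: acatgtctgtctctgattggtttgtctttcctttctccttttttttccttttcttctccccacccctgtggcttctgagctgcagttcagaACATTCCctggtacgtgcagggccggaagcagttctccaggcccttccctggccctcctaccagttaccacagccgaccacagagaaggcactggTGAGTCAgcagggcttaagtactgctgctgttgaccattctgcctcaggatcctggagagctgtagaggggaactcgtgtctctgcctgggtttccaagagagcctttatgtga
1700119H24Rik: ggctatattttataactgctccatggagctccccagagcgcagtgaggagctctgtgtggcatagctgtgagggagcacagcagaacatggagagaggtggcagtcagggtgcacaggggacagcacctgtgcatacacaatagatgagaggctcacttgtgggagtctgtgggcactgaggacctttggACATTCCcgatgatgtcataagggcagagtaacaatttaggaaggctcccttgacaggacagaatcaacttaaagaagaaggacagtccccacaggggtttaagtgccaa

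TEAD factors are the DNA-binding partners of the mechanically regulated coactivators YAP and TAZ, and AP-1 is a family of FOS and JUN dimers. Both strands were searched. The letters ACATTCC began 159 bases before the start site in the Mylk window and 60 bases before it in the 1700119H24Rik window, and were found in 3.85% of 32851 RefSeq windows of the same length. The AP-1 letters began 64 bases before the Mylk start site and were found in 7.81% of the windows. Neither of these motifs was found in the windows of Myh9, Myh10 or Fmnl2. The 1700119H24Rik window also held E-boxes (CANNTG), 126 and 96 bases before its start (72.3% of windows). The Mylk window also held the RUNX motif TGTGGT as its reverse complement, at 2 positions, 93 and 83 bases before the start (16.8% of windows), and the SMAD motif CAGACA, likewise as its complement, 247 bases before it (21% of windows). A match describes the letters in the window and is not a binding site, and the windows lie outside the listed regions. No motif search was made in the regions themselves.

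The nonmuscle myosin II heavy chain genes differed in how their regions were placed. Myh10, which encodes the heavy chain of nonmuscle myosin IIB, had 3 more accessible regions, all outside the gene (chr11:68691915-68816626, plus strand), and no less accessible one. They were chr11:68655718-68656291 (574 bp), chr11:68657087-68658176 (1090 bp) and chr11:68665057-68665962 (906 bp), at 35.9, 34.3 and 26.4 kb upstream of the start site. Neighbouring midpoints were 1.63 and 7.88 kb apart, so all 3 had another more accessible region within 10 kb. On the side away from Myh10, the nearest protein-coding gene was Ccdc42, 58.1 to 67.6 kb from them, and no annotated gene of any type was nearer to them than Myh10. Merged within 10 kb, they counted as 1 region. The nearest less accessible region was 1134 kb from the first of them.

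The Myh10 promoter window (chr11:68691665-68691964, plus strand) is shown as the start site from which this upstream group is measured. Its capitals mark the TEAD core GGAATG, read on the opposite strand.
Myh10: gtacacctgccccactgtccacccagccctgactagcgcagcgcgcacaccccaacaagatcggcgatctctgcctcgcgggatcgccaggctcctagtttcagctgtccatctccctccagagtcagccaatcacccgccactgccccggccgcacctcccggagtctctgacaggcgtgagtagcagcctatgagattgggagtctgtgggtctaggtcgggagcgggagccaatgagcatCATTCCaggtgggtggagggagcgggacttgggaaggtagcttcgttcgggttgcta

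The TEAD core began 7 bases before the Myh10 start site. It was found in 14.7% of all windows, and it is contained in the longer TEAD motif of the Mylk window. The windows of Myh9 and Fmnl2, from whose start sites regions are also measured, did not hold it and are not printed. The Myh10 window also held 3 E-boxes (CANNTG), a motif in 72.3% of windows, the last of them overlapping the TEAD core. No SRF CArG box, the motif of the actin-responsive factor SRF, was found in the windows of Mylk, Myh9, Myh10 or Fmnl2. It was found in 1.63% of all windows.

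Myh9, which encodes the heavy chain of nonmuscle myosin IIA, had regions in both directions, 1 more accessible and 1 less accessible. The gene (chr15:77760585-77842175) is transcribed toward lower coordinates. The more accessible region, chr15:77859668-77860109 (442 bp), lay 17.7 kb upstream of the start site at 77842175, between Myh9 and Txn2. The less accessible region, chr15:77766192-77766611 (420 bp), lay inside the gene, 75.8 kb downstream of the start and 5.82 kb before its far end. The 2 midpoints were 93.5 kb apart. Regions of both directions were linked to 80 of all 21887 genes (0.366%), and to 16 of 2698 other genes within 1.5 times the span of Myh9 (0.593%). The next less accessible region on the chromosome lay 1648 kb away, against quartiles of 175 and 2397 kb for that distance over the whole less accessible list. The gene Apol8 lay 9.34 kb from the less accessible region. The Myh9 window held an E-box and the SMAD motif CAGACA beginning 129 bases before the start.

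**Figure D1:**
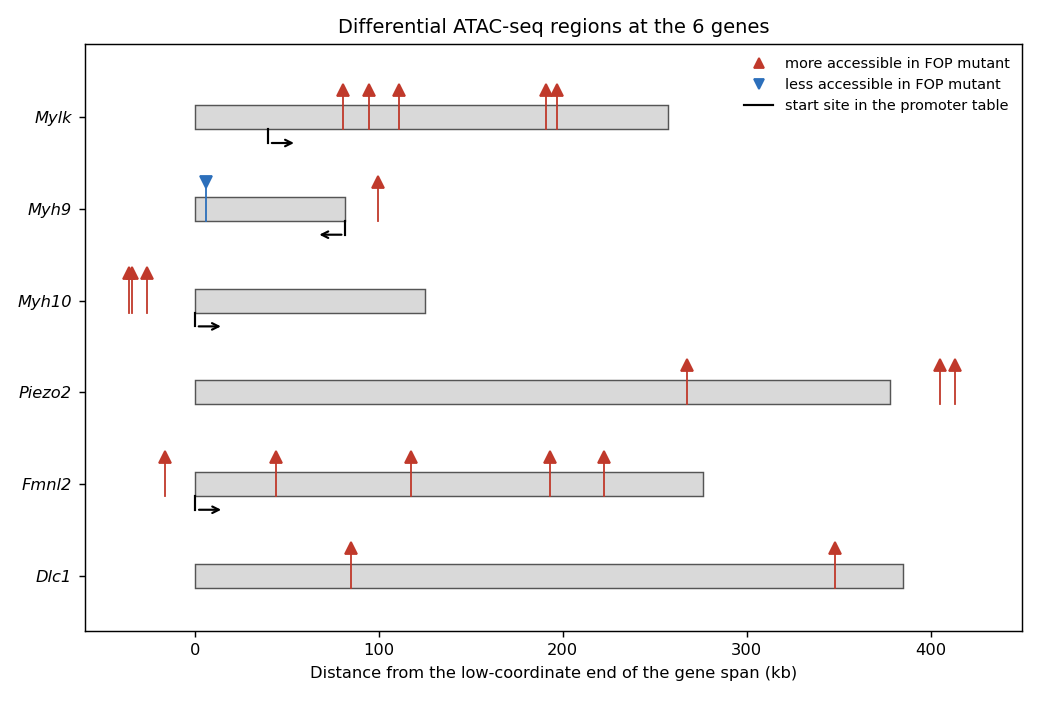
Each grey bar is the span of a gene, drawn to scale from its low-coordinate end in kb, with triangles at the midpoints of linked regions (upward, more accessible in FOP mutant cells; downward, less accessible) and an arrow at the RefSeq start site for the 4 genes in the promoter table. All 5 Mylk regions lie inside the gene, the 3 Myh10 regions lie upstream of it, and Myh9 alone of the 6 genes has a downward triangle.

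The formin gene Fmnl2, whose product elongates actin filaments at the leading edge downstream of CDC42, had 5 more accessible regions and no less accessible one. They were spread along the locus rather than grouped. The first, chr2:52841125-52841456 (332 bp), lay 16.6 kb upstream of the start site at 52857868. The other 4 lay inside the gene (chr2:52857717-53134202, plus strand), at chr2:52901420-52902280 (861 bp), chr2:52974645-52975340 (696 bp), chr2:53050312-53050756 (445 bp) and chr2:53079549-53080309 (761 bp), 44.0, 117, 193 and 222 kb downstream. Neighbouring midpoints were 60.6, 73.1, 75.5 and 29.4 kb apart, each farther than the 10 kb used to call regions clustered. The nearest less accessible region was 2174 kb from the closest of them. The regions 193 and 222 kb downstream were nearer to the start site of Arl6ip6, at 142 and 112 kb, than to that of Fmnl2. The Fmnl2 promoter window had a GC content of 78.7%, against a median of 52.7% over all windows, and held the GC-rich SMAD motif GGCGCC (11.9% of windows) 38 bases into the transcript.

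Dlc1, which encodes a GTPase-activating protein that switches off RHOA and its close relatives, had 2 more accessible regions inside its 385 kb span (chr8:36567739-36953184) and no less accessible one. The first, chr8:36652211-36652543, was 333 bp wide, and only 8.23% of all more accessible regions were narrower. The other, chr8:36914927-36916411, was 1485 bp wide, and 99.6% were narrower. They lay 84.6 kb from the low-coordinate end and 37.5 kb from the high-coordinate end of the gene, and 263 kb apart. The nearest less accessible region, linked to no gene, was 378 kb from the second of them. Dlc1 was therefore a long gene with a narrow and a wide region and no clustering.

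Piezo2, which encodes a mechanically gated cation channel known for touch and proprioception in sensory neurons, had 3 more accessible regions and no less accessible one. The region inside its 378 kb span (chr18:63010213-63387716) was chr18:63277528-63278235 (708 bp), 110 kb from the high-coordinate end. The others, chr18:63415360-63415701 (342 bp) and chr18:63423578-63423892 (315 bp), lay 27.8 and 36.0 kb beyond that end, 8.20 kb apart, in the 275 kb between Piezo2 and Txnl1. That interval held 3 further more accessible regions. Of these, chr18:63529740-63530250 lay 142 kb from Piezo2 and was linked to no gene. The other 2 lay 208 and 209 kb from Piezo2 and were linked to Txnl1. The noncoding gene Gm26972 was nearer than Piezo2 to both outside regions, at 12.7 and 20.9 kb. With all annotated genes competing for a region, Piezo2 kept 1.

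Of the 19 more accessible regions, 12 (63.2%) lay inside the linked gene, at Mylk, Fmnl2, Dlc1 and Piezo2, against 1345 of the 2290 more accessible regions that the same rule linked to a gene (58.7%). The other 7 were at Myh10, Piezo2, Myh9 and Fmnl2. None of the 16 on chromosomes covered by the promoter table overlapped a promoter window in it, and no window of Dlc1 was among those used. Over the whole list, 23 of 2846 such regions overlapped one (0.808%), a share so low that no difference can be read from 16 regions. The distance to the nearer end of the linked gene was 16.4 to 117 kb, with a median of 54.3 kb. The farthest region outside a span was 36.0 kb away, well within the limit of 100 kb. Nearest beyond the rule were a region 104 kb from Myh9, inside Foxred2, and a region 113 kb from Piezo2, linked to Apcdd1. Of the 12 protein-coding genes that flank the 6, 11 had no linked region of either direction, and Txnl1 had 2 more accessible regions. Whether a region was exonic or intronic was not analysed here, as the gene table gives no exons.

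Another more accessible region lay within 10 kb for 7 of the 19 (36.8%), against 345 of all 2965 (11.6%). These were the 3 at Myh10 and the pairs at Mylk and Piezo2. The median distance to the nearest region of the same direction was 16.1 kb for the 19, against 121 kb for the whole list, with quartiles of 32.3 and 361 kb. Genes picked for having several regions bring close neighbours with them, so this spacing is in part fixed by the choice.

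Widths spanned most of the range of the list. The 19 regions were 315 to 1485 bp wide, with a median of 613 bp, against 200 to 1769 bp and a median of 572 bp over all more accessible regions (quartiles 439 and 762 bp). There were 3 regions over 1000 bp (15.8%, against 7.52% of the list), at Dlc1, Mylk and Myh10. The 4 under 350 bp (21.1%, against 10.1% of the list) were at Piezo2, Fmnl2 and Dlc1. The less accessible region of Myh9, at 420 bp, was below the lower quartile of its list (480 bp).

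**Figure D2:**
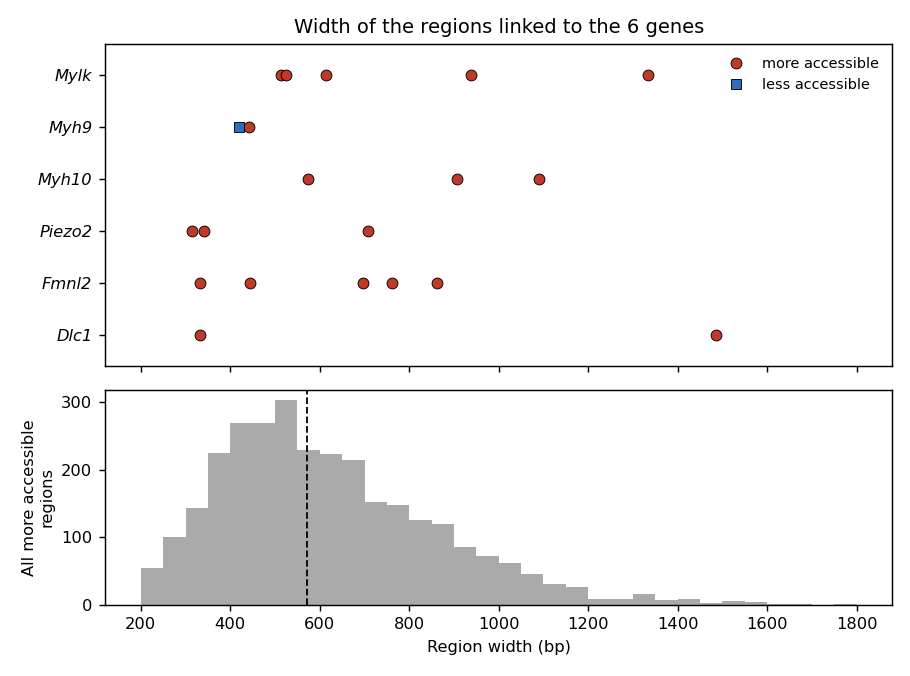
The upper panel plots the width in bp of each region linked to the 6 genes (circles, more accessible in FOP mutant cells; square, less accessible), and the lower panel is a histogram of all 2965 more accessible regions with a dashed line at their median of 572 bp. The Dlc1 regions, at 333 and 1485 bp, lie near opposite ends of the distribution.

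Gene length bears on the regions inside a gene, since a long gene offers more room for a region. Span does not measure the room outside a gene. There lay all more accessible regions of Myh9 and Myh10, 2 of 3 at Piezo2 and 1 of 5 at Fmnl2. The gaps to the next protein-coding gene that held them were 72.9, 94.0, 275 and 116 kb, in that order. Genes were not compared by gap. All 6 genes were longer than the median protein-coding gene, at 81.6 to 385 kb against 17.2 kb. All 6 genes were left out of each comparison set by span, so that Mylk and Fmnl2 were not counted for each other. Among 835 other genes within 1.5 times the span of Mylk, 298 (35.7%) had a more accessible region and 5 (0.599%) had at least 5. For Fmnl2 the same numbers were 297 of 773 (38.4%) and 5 (0.647%). For Myh10, 397 of 1928 genes of similar span (20.6%) had a region and 25 (1.30%) had at least 3. That share rests on counting the 3 Myh10 regions singly, since they count as 1 when merged within 10 kb. Piezo2, with 3, was matched or exceeded by 53 of 538 genes (9.85%), and Dlc1, with 2, by 111 of 529 (21%). Any more accessible region was found at 42.9% and 43.7% of the genes in these span ranges. Myh9, with 1, was matched or exceeded by 349 of 2698 (12.9%), the share of such genes with any region. Per length, the 6 genes together held 0.798 more accessible regions inside the span per 100 kb of gene, against 0.13 over all protein-coding genes. The 152 other genes of the 6 lists for contractility and mechanosensing, described below, held 0.159. Since the 6 genes were chosen in part by the number of regions linked to them, their density is in part fixed and carries no test.

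**Figure D3:**
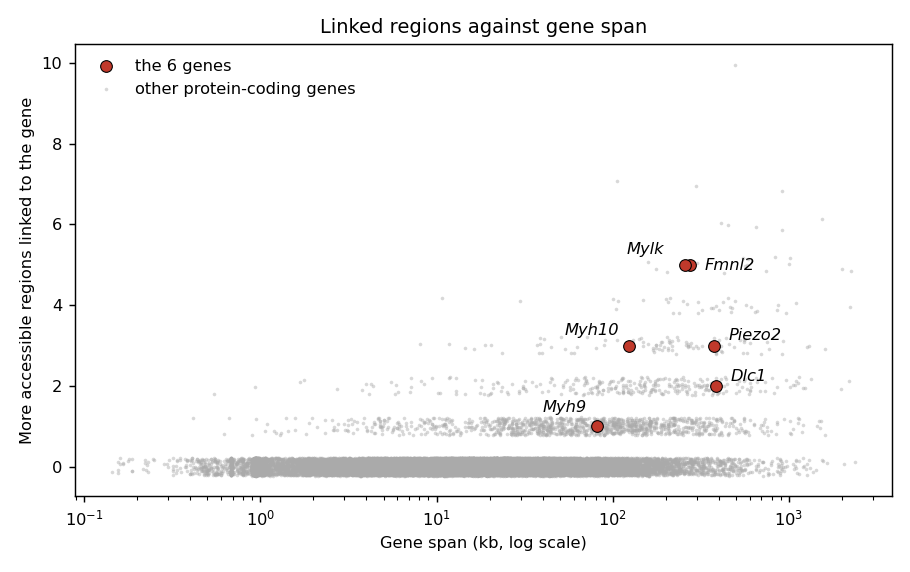
Each point is a protein-coding gene, placed by its span in kb on a log axis and by the number of more accessible regions linked to it, with the grey points spread vertically at random around their whole number. The 6 genes (red) lie at spans of 81.6 to 385 kb, and counts tend to be higher toward longer genes; Mylk and Fmnl2 share a count of 5.

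By number of linked regions and length, the genes most like Mylk were Fmnl2, Adamtsl3 (279 kb) and Jazf1 (301 kb). They were the nearest in span of 14 other genes with 5 more accessible and no less accessible regions. For Fmnl2 they were Adamtsl3, Mylk and Jazf1. Col8a1, Usp24 and Hs2st1 were nearest to Myh10 among 89 genes with its counts, and Tmtc2 and Babam2 were close in span to Piezo2, which has the same counts. Uaca, Mkx and Ece1 were nearest to Myh9 among 48, and Cacnb2, Mcc and Pdzd2 to Dlc1 among 275.

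More accessible regions were linked to 26 of the 152 other genes of 6 lists for contractility and mechanosensing (17.1%, against 7.27% of all genes) and less accessible regions to 7 (4.61%, against 1.99%). Their median span was 64.5 kb, against 17.2 kb over all genes, and the shares were closer to those of genes of the same length. At 100 to 200 kb, 9 of 32 listed genes (28.1%) had a more accessible region against 342 of 1438 (23.8%). At 200 to 400 kb the counts were 9 of 17 (52.9%) against 254 of 634 (40.1%), and above 400 kb 3 of 7 (42.9%) against 169 of 352 (48.0%). Below 50 kb they were 2 of 65 (3.08%) against 535 of 16942 (3.16%), and at 50 to 100 kb 3 of 31 (9.68%) against 285 of 2515 (11.3%). For less accessible regions, the listed counts from the shortest class to the longest were 1 of 65, 1 of 31, 3 of 32, 1 of 17 and 1 of 7. Over protein-coding genes except the 6, the shares in these classes were 1.22%, 2.9%, 5.29%, 6.62% and 10.5%. No excess is read from these shares, which carry no test.

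**Figure D4:**
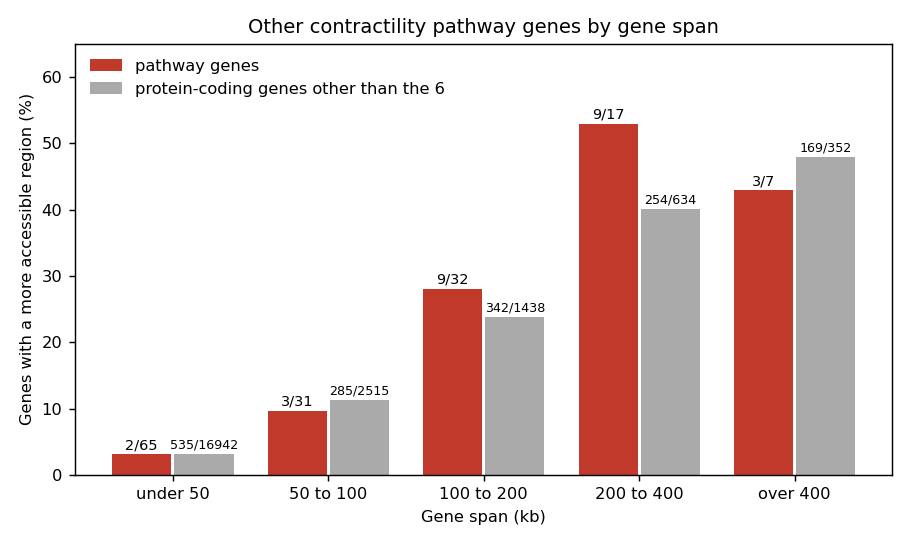
Bars show the percentage of genes with at least 1 more accessible region in FOP mutant cells, by gene span in kb, for the 152 other pathway genes (red) and for all protein-coding genes except the 6 described here (grey), with the counts above each bar. The grey share climbs with gene length throughout, and the red share climbs up to 200 to 400 kb and is lower above 400 kb. The red bar is above the grey at 100 to 400 kb and not in the other classes.

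Among the myosin II genes, kinases and phosphatases, 3 of 20 other genes had a more accessible region, and none had a less accessible one. Cdc42bpa, which encodes the myosin-phosphorylating kinase MRCK alpha, had 3, all outside the gene at 67.1 to 71.9 kb. Of 13 other formin genes, 3 had more accessible regions. Fmn2 had 2 inside it, and Daam1 had 1 in each direction inside its span. The small GTPases of the cytoskeleton and their regulators held more accessible regions at 11 of 39 other genes. Arhgap24, a RAC-directed GTPase-activating protein, had 3 more accessible regions inside the gene, and Arhgap29, another GTPase-activating protein, had 2 outside it. Arhgef3, which encodes an exchange factor for small GTPases, had 2 inside. Arhgap26 had 3 more and 2 less accessible regions within its 775 kb. Less accessible regions alone were found at Arhgef10l, with 3, and at Cdc42, with 1.

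None of the 17 other mechanically gated channel genes, which include Piezo1, Trpv4 and Trpm7, had a linked region of either direction, in a list too short to set against the shares over all genes of 7.27% for more and 1.99% for less accessible regions. Of the 43 genes for crosslinkers, tropomyosins and focal adhesion proteins, 7 had more accessible regions. Tes, which encodes the adhesion protein testin, had 3, of which 1 lay inside the gene and the others 9.45 and 81.3 kb outside it. Palld and Svil, for the actin-binding proteins palladin and supervillin, had 2 each. Those of Palld lay inside it, and 1 of the Svil regions lay 81.8 kb outside the gene. Tns3, a tensin gene, had 3 in each direction, with 1 of the more accessible and all 3 less accessible ones inside it. Among the 20 genes of the MRTF-SRF and YAP/TAZ-TEAD regulators, 2 had a more accessible region, at Vgll3 and Vgll4. Less accessible regions were found at Amotl1, an angiomotin family gene that binds YAP, with 2, and at Tead4, with 1.

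The labelled cell type could be checked only for linked regions, since the lists give no level of accessibility. Of 9 fibroblast marker genes, Dcn and Lum had a more accessible region. None of the 4 skeletal muscle or 4 smooth muscle markers, among them Acta2 and Myh11, had a region in either list. Cdh5 of 3 endothelial markers and Nes of 3 neural markers had a less accessible region. Sets of this size cannot be told apart from the shares over all genes, 7.27% and 1.99%, and do not show the cell type. The part of cell composition in the regions of the 6 genes was not tested.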

How the data were processed

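ATAC-seq libraries of 3 FOP mutant and 3 wild-type fibroblast samples lie behind the 2 region lists that the authors deposited, 1 for each direction. Each list gives only the chromosome and the end points of its regions, in base pairs, and no count, signal, fold or p-value. The submitters' processing notes name the builds mm10 and GRCm38 and the tools Bowtie2, MACS2, featureCounts, DESeq2, Trimmomatic, SAMtools and bedtools. Not given in the sources used here are their versions, the threshold for listing a region, the handling of duplicates and of the transposase offset, and the pooling of libraries for peak calling. The name of each list gave the direction.

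Positions are given counted from 1. Genes came from the RefSeq table of GRCm38.p6 (Python 3.11.15, numpy 2.4.6), and all 158 symbols of the pathway lists matched. A region inside overlapping genes was linked to each. Promoter windows of Mylk, Myh9, Myh10 and Fmnl2 were in the RefSeq table. Entries for Dlc1 and Piezo2 were not used here, so their distances are from gene ends. Motif searches in the regions were planned and not run, because no genome sequence was used here. Linking was checked on 200 planted genes.

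The 6 genes and the lists were chosen with earlier results of these data known, so no test was made. Named pathway genes are those with at least 2 linked regions or with less accessible regions, with Vgll3, Vgll4, Piezo1, Trpv4 and Trpm7 chosen after their values were seen. Also named are the flanking genes with a bearing on a result and, for each of the 6, the 3 genes nearest in span with the same counts, of which 1 is not reported here. Alternatives to the linking rule are given in the closing section.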

Additional observations from a re-analysis of the deposited data

How the results depend on the processing

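The 19 more accessible regions at the 6 genes became 12 with a limit of 10 kb for regions outside genes, and 12 when regions inside the span alone were counted. Under both, Myh9 and Myh10 had 0 and Piezo2 had 1, since their other regions lie farther out. Counting inside regions alone also lowered the share of all protein-coding genes with a more accessible region to 4.28% and with a less accessible region to 1.09%. With all annotated genes competing, Piezo2 had 1, and with regions merged within 10 kb, Myh10 had 1. Of 49 summary values over 7 alternatives, 4 moved by more than 1.5 times, and of 84 counts for single genes, 8 did. Mylk had 4 or 5, Fmnl2 4 or 5 and Dlc1 2 under each of the 7. No paired analysis was possible because the lists hold no value per library. For the same reason no replicate could be left out, and depth and the size of each change are unknown.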
